A study of Mus musculus with 23 samples.

Results

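The matrix proteases and protease inhibitors described here are the genes on a targeted expression panel whose symbols begin with Mmp, Timp, Adam, Adamts or Serpin, other than Mmp3 and Mmp13. The rule used symbols alone and found 37 of 3826 genes, of which 13 were matrix metalloproteases (MMPs), 4 were tissue inhibitors of metalloproteases (TIMPs), 5 were ADAMs, 4 were ADAMTS proteases and 11 were serpins. Of these, 25 were counted deeply enough to be tested (10 MMPs, 3 TIMPs, 5 ADAMs, 3 ADAMTS proteases and 4 serpins), and 12 did not pass the filter on low counts. The name of the group holds for most members but not for all of them: Serpinh1 encodes a collagen chaperone, Serpinf1 encodes a serpin that does not inhibit proteases, and Adam23 encodes an ADAM without protease activity.

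The genes were measured in 23 mammary carcinomas of mice, 11 in the control group and 12 in the abemaciclib group. Tumours in both groups were induced with doxycycline at 6 weeks of age, and the mice entered the groups at equal mean tumour volume. The control mice received vehicle and the others abemaciclib, an oral drug that blocks the cell-cycle kinases CDK4 and CDK6, at 90 mg/kg daily by gavage, with tissue frozen after dose number 12. The labels name no transgene, strain or sex, and they do not tie a tumour to an animal, so p-values measure the spread between these tumours, some of which may share an animal. Each tumour is bulk tissue, in which fewer cells of a type and less RNA per cell cannot be told apart.

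MMPs are zinc-dependent enzymes that cut collagens, proteoglycans and other matrix proteins, and in mammary tumours many of them are made by fibroblasts and macrophages as well as by carcinoma cells. They are secreted or held at the cell surface as inactive precursors, and TIMPs block the active site. ADAMs release growth factors, cytokines and receptors from the cell surface, ADAMTS enzymes cut proteoglycans or process procollagen, and inhibitory serpins trap serine proteases such as the plasminogen activators.

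No gene of the group passed the test. With edgeR's quasi-likelihood test and Benjamini-Hochberg adjustment over all 2925 genes tested, 0 of the 25 members were called at an adjusted p under 0.05, and the same test called 0% of all genes. The members' adjusted p-values ran from 0.216 to 0.981. At an unadjusted p under 0.05, 4 members were higher in abemaciclib tumours (Mmp2, Mmp11, Mmp8 and Mmp19), against 7.59% of all genes, and 0 were lower, against 5.81% of all genes. The Wald test of DESeq2 called 2.05% of all genes and limma-voom with quality weights called 4.34%, and neither called any of the 25 members.

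By direction alone, 19 of the 25 members had a positive log2 fold change (abemaciclib minus control) and 6 a negative one, with a median of 0.25, beside 1496 positive values and a median of 0.0055 over the 2925 genes. Scaled to library totals, which moved the median of all genes to -0.12, 15 of the 25 were positive. The MMPs were positive in 9 of 10 genes with a median of 0.64. The medians of the other classes were 0.27 for 3 TIMPs, 0.11 for 5 ADAMs, 0.098 for 3 ADAMTS genes and 0.17 for 4 serpins. These counts describe the members and carry no test.

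**Figure D1:**
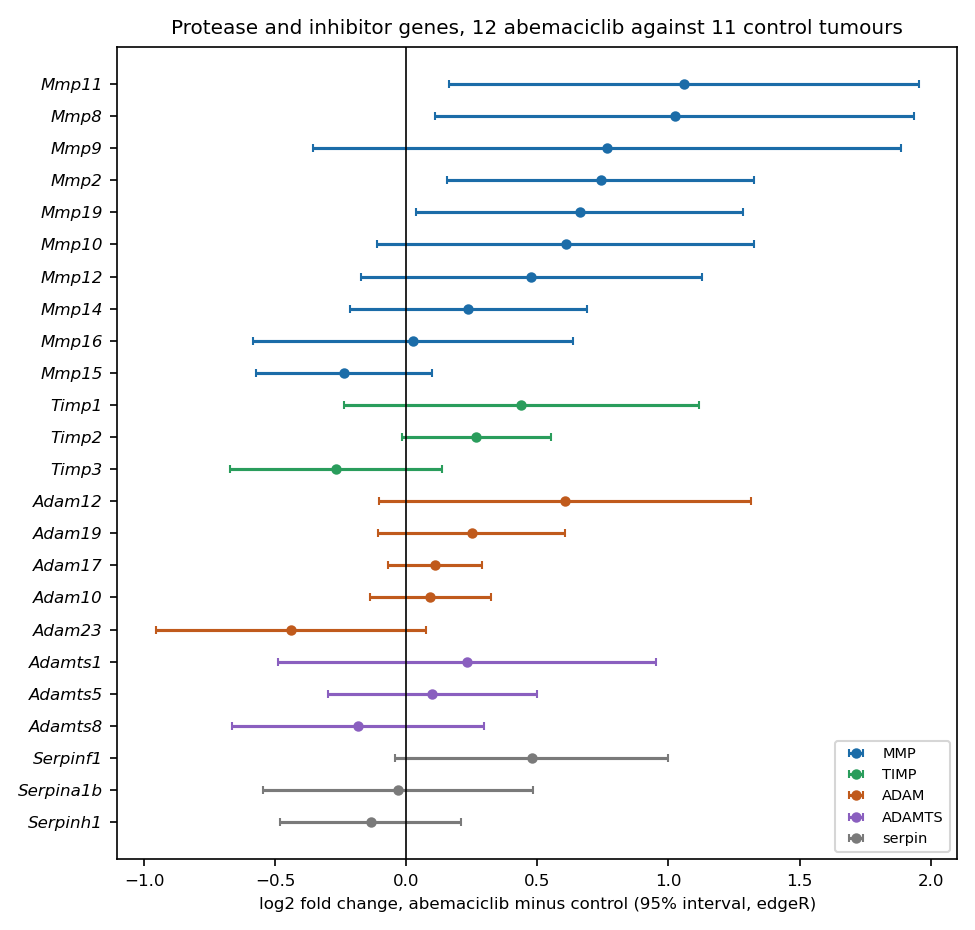
Log2 fold change of tested protease and inhibitor genes, abemaciclib minus control, on the horizontal axis, with 1 point per gene coloured by class and bars for the 95% interval from edgeR. The intervals of Mmp11, Mmp8, Mmp2 and Mmp19 lie above 0, and no gene drawn passed after adjustment.

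The promoters of 4 members are shown because these genes had their extremes in the same tumours. Mmp10 and Serpinb2 were highest in abemaciclib tumour 3 with tumour 10 next, and Mmp14 and Timp1 were both highest in abemaciclib tumour 9 and lowest in abemaciclib tumour 12. Each line gives the 150 bases before the RefSeq transcription start on GRCm38.p6, 5′ to 3′ on the gene's strand. Capitals mark the AP-1 motif TGANTCA, the TATA motif TATAAA and the GC box GGGCGG, searched on both strands.
Mmp10, chr9:7502192-7502341, plus strand: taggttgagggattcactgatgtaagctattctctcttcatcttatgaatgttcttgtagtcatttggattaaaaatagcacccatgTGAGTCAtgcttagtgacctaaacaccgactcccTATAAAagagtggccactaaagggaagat
Serpinb2, chr1:107511273-107511422, plus strand: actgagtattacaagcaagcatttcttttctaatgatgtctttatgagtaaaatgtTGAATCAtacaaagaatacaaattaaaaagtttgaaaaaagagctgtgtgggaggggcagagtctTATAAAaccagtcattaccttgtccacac
Mmp14, chr14:54431448-54431597, plus strand: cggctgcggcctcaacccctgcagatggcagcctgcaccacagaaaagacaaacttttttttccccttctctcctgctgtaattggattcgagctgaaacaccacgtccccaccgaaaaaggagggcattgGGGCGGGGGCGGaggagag
Timp1, chrX:20870016-20870165, plus strand: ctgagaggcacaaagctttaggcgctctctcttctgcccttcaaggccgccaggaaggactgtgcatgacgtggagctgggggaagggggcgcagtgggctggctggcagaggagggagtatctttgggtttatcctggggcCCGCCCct
Mmp10 and Serpinb2 each held an AP-1 motif, 63 and 94 bases before the start, and a TATA motif 29 bases before it. Mmp14 and Timp1 held GC boxes and neither of the other motifs in this window. Serpinf1, not shown, was also highest in abemaciclib tumour 9 and lowest in abemaciclib tumour 12, and its window held none of these motifs. Adamts1, not shown, was highest in abemaciclib tumour 10, and its window held 3 GC boxes, a TATA motif and no AP-1 motif. Adam10, also highest in abemaciclib tumour 10, held 2 GC boxes and no AP-1 motif. Adam19, highest in abemaciclib tumour 3, held an AP-1 motif in the window chr11:46055834-46055983 and none in its other windows.

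RefSeq promoters, each 250 bases before to 50 after a start, matched 29 of the 37 members with 34 promoters. The AP-1 motif was found in 12 of the 34 promoters (35.3%), which belong to 11 members, against 7.81% of all 32851 promoters. The TATA motif was found in 9 of 34 (26.5%), against 13.6% of all promoters, and the GC box in 12 of 34 (35.3%), close to its share of 35.7% of all promoters. The member promoters are not independent, which limits these contrasts. The same AP-1 and TATA motifs of Serpinb2 were counted in overlapping promoters. Near copies with an AP-1 motif, Serpina1a to Serpina1d and Mmp1a with Mmp1b, were each counted. The AP-1 members were Mmp1a, Mmp1b, Mmp7, Mmp10, Mmp12, Adam19, Serpina1a, Serpina1b, Serpina1c, Serpina1d and Serpinb2, among them 5 of the 6 member genes in the MMP cluster on chromosome 9 (7344381 to 7699585, 355.2 kb). The other gene of that cluster, Mmp8, held no AP-1 motif in its window. A match is a description of the letters and not of a bound site. Members without a matched promoter entry included Mmp2, Mmp9, Mmp16, Mmp19, Adam12, Adamts5 and Adamts8.

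Mmp2 encodes gelatinase A, a secreted enzyme that cuts denatured and basement-membrane collagen (chromosome 8, 92827291 to 92853420, mm10). Its level, given as CPM (the read count relative to the TMM-scaled library total), was lowest at 93.3, median 210.0 and highest at 303.7 in the control tumours, and lowest at 106.0, median 267.5 and highest at 916 in the abemaciclib tumours. The groups overlapped, with 5 of 12 abemaciclib tumours above every control tumour and none below the lowest. The means were 206.0 ± 68.3 CPM (SD, n = 11) and 345.0 ± 224.0 CPM (SD, n = 12), a log2 fold change of 0.74 (SE 0.285, unadjusted p = 0.0151, adjusted p = 0.216 by edgeR). Without abemaciclib tumour 9 the fold change was 0.51, the lowest value with any 1 tumour left out.

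Mmp11 encodes stromelysin-3, an enzyme made mainly by fibroblasts around carcinoma cells (chromosome 10, 75923222 to 75936496). It ran from 2.90 through a median of 10.2 to 18.8 CPM in control and from 5.65 through 11.7 to 106.6 CPM in abemaciclib tumours. The medians lay close together, and the upper end differed: 5 abemaciclib tumours (1, 6, 7, 8 and 9) exceeded the highest control. The log2 fold change was 1.06 (SE 0.435, adjusted p = 0.256 by edgeR), and 0.50 without abemaciclib tumour 9.

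Mmp8 encodes the collagenase of neutrophils. It was counted at 0 to 16 reads in control and 3 to 33 reads in abemaciclib tumours, so counting error bears on its values. The medians of the groups were 2.23 CPM (control) and 3.63 CPM (abemaciclib), and 7 of the 12 abemaciclib tumours lay above the highest control value of 3.475 CPM. The fitted log2 fold change was 1.02 (SE 0.444, adjusted p = 0.292 by edgeR). Of the neutrophil markers, 5 were on the panel and 3 were tested, 2 positive and 1 negative. S100a8, at 94 to 468 reads in control tumours, had a log2 fold change of 0.49 (unadjusted p = 0.0228, adjusted p = 0.259 by edgeR). Mpo was at 0 in most tumours, and the summed levels were 43.3 to 121.4 CPM in control and 52.7 to 135.3 CPM in abemaciclib tumours. Their part in the Mmp8 values was not tested.

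Mmp19 encodes a secreted enzyme with activity against basement-membrane proteins. It ran from 14.7 through a median of 24.8 to 45.7 CPM in control and from 12.1 through 37.2 to 136.4 CPM in abemaciclib tumours. The abemaciclib tumours split, with 8 above the control median and 4 below it (tumours 1, 5, 11 and 12). Its fold change, 0.66 on the log2 scale (SE 0.303, adjusted p = 0.327 by edgeR), was 0.33 without abemaciclib tumour 9.

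Mmp14 encodes MT1-MMP, the membrane-anchored collagenase that activates the Mmp2 precursor (chromosome 14, 54431612 to 54445364). Its control tumours were tightly grouped, from 450.4 through a median of 583.7 to 749.9 CPM. The abemaciclib tumours ran from 272.7 through 628.3 to 1807 CPM, with 4 above every control tumour (2, 4, 8 and 9) and 4 below every control tumour (1, 5, 11 and 12). The difference of the means was small beside this spread: 609.6 ± 106.0 CPM (SD, n = 11) against 718.4 ± 402.7 CPM (SD, n = 12), a log2 fold change of 0.24 (95% interval -0.22 to 0.69, adjusted p = 0.677 by edgeR). Without abemaciclib tumour 9 it was 0.023.

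Mmp9 encodes gelatinase B, made by myeloid cells and by some carcinoma cells. In control tumours it ran from 9.95 through a median of 35.2 to 52.0 CPM. Most abemaciclib tumours were lower, with 8 of 12 below the control median and a median of 19.0 CPM, while tumours 3, 9 and 10 reached 241.3, 166.3 and 117.2 CPM. The fitted log2 fold change of 0.77 (95% interval -0.35 to 1.89, adjusted p = 0.572 by edgeR) therefore has the sign of the mean and not of the median. It was 0.27 without tumour 3, -0.044 without tumours 3 and 10, and -0.58 by limma-voom with quality weights.

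Mmp12 encodes the metalloelastase of macrophages. It ran from 18.4 through a median of 72.6 to 163.3 CPM in control and from 44.0 through 99.1 to 214.9 CPM in the abemaciclib group, and the log2 fold change was 0.48 (95% interval -0.17 to 1.13, adjusted p = 0.547 by edgeR). The 6 macrophage markers on the panel were all tested and all positive, 4 of them at an unadjusted p under 0.05. None was called by edgeR, while DESeq2 and limma-voom both called 3 (C1qa, Msr1 and Fcgr3). Their summed level was 1431 to 3013 CPM in control and 1907 to 4544 CPM in abemaciclib tumours. Their part in the Mmp12 values was not tested. Mmp12 was highest in abemaciclib tumour 2, which had the lowest marker sum of the abemaciclib tumours at 1907 CPM. The single markers were mixed there: Msr1 (36.4 CPM), C1qa and Fcgr3 were above their control medians, and Cd14, Csf1r and Itgam were below theirs.

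Mmp15 encodes MT2-MMP, another membrane-anchored enzyme, and was the MMP with a negative fold change. Levels ran from 149.5 through a median of 366.0 to 460.3 CPM in control and from 111.5 through 314.8 to 385.5 CPM in abemaciclib tumours, and 11 of 12 abemaciclib tumours lay below the control median. The log2 fold change was -0.24 (95% interval -0.57 to 0.099, adjusted p = 0.565 by edgeR), and -0.16 without abemaciclib tumour 9. Mmp10 (stromelysin-2) was at 0.61 (95% interval -0.11 to 1.33) and Mmp16 (MT3-MMP) at 0.025 (95% interval -0.58 to 0.64). Mmp7, Mmp1a and Mmp1b had few reads in any tumour, 0 to 9 for Mmp7, 0 to 3 for Mmp1a and 0 to 5 for Mmp1b. Mmp1a and Mmp1b are near copies of each other, and reads may have been split between them.

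**Figure D2:**
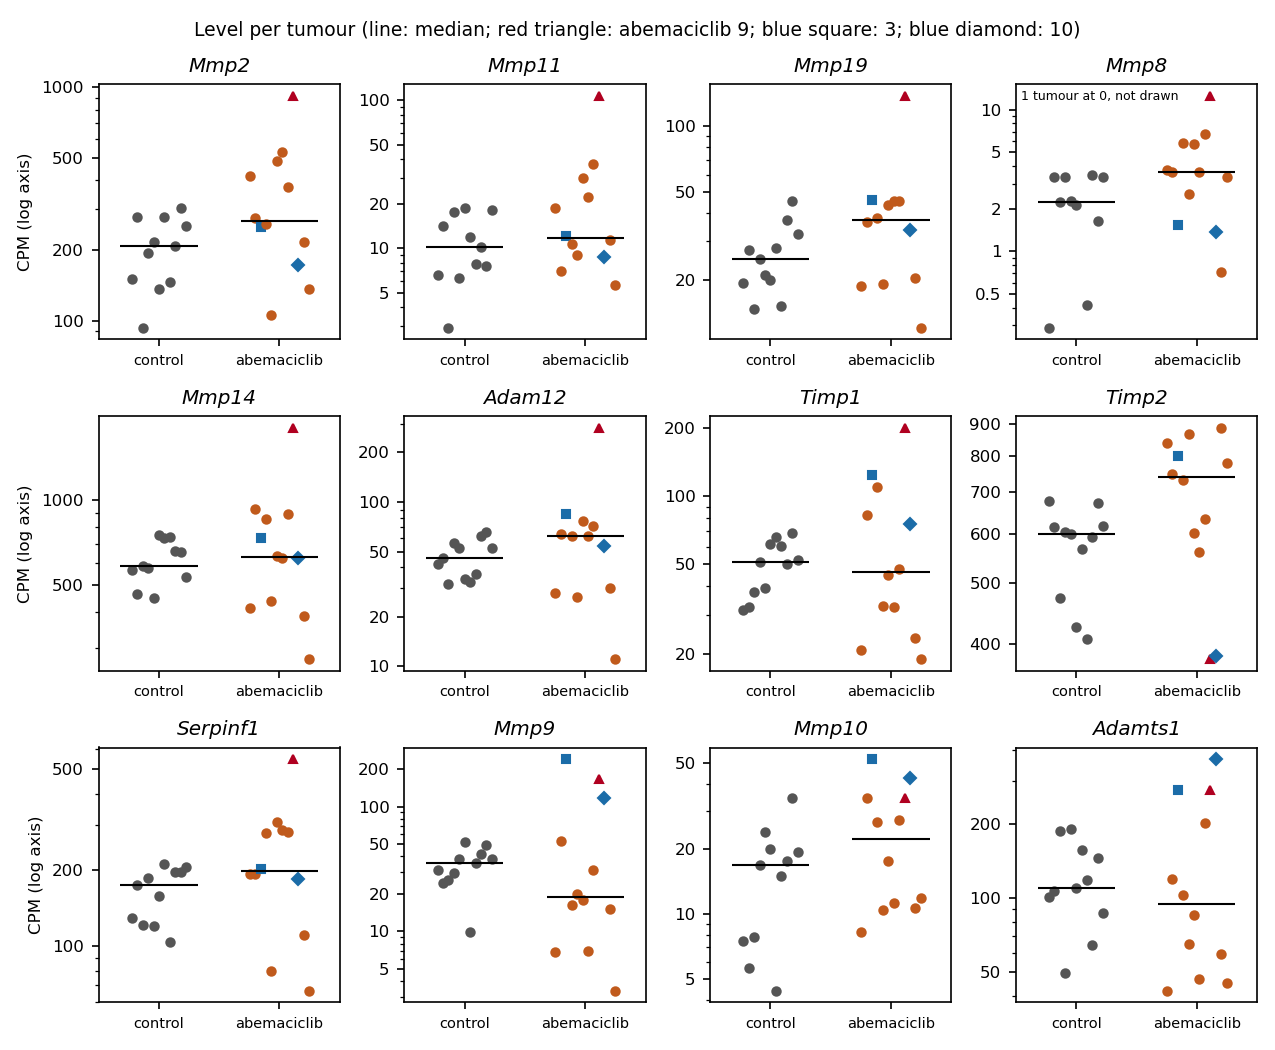
Level of 12 protease and inhibitor genes in each tumour, in CPM on a log axis, for 11 control (grey) and 12 abemaciclib (orange) tumours, with a line at the median. Abemaciclib tumour 9 (red triangle) is the highest point in 8 of the panels, among them Mmp2 at 916 CPM, and is at the bottom for Timp2. Abemaciclib tumour 3 or 10 (blue) holds the highest value of Mmp9, Mmp10 and Adamts1.

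Among the inhibitors, Timp2, which blocks several MMPs and also bridges the Mmp2 precursor to MT1-MMP, was above the median of the control group in 9 of 12 abemaciclib tumours. It ran from 407.6 through a median of 599.5 to 676.1 CPM in control and from 377.9 through 739.5 to 887.1 CPM in abemaciclib tumours. Here 7 abemaciclib tumours lay above every control tumour and 2 (tumours 9 and 10) below every control tumour. The means were 568.2 ± 92.2 CPM (SD, n = 11) and 683.8 ± 174.8 CPM (SD, n = 12), a log2 fold change of 0.27 (SE 0.139, unadjusted p = 0.065, adjusted p = 0.407 by edgeR).

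Timp1, a secreted inhibitor of most MMPs, had abemaciclib tumours on both sides of the control range. Control tumours ran from 31.45 through a median of 51.3 to 68.9 CPM and abemaciclib tumours from 19.0 through 46.3 to 201.4 CPM. Of the abemaciclib tumours, 5 exceeded every control and 3 lay below every control, and 4 lay inside the control range. On the log2 scale the difference was 0.44 (95% interval -0.24 to 1.12, adjusted p = 0.595 by edgeR), and 0.16 without abemaciclib tumour 9. Timp3, the TIMP that binds to the matrix and also blocks ADAMs, had a log2 fold change of -0.27 (95% interval -0.67 to 0.14, adjusted p = 0.586 by edgeR), which was -0.074 without control tumour 8, where it reached 599.6 CPM. Timp4 had at most 2 reads in any tumour.

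Adam10 and Adam17, the widely expressed sheddases of Notch receptors and of tumour necrosis factor, were among the most even members. Adam17 had a mean of 254.2 ± 32.3 CPM (SD, n = 11) without the drug and 274.2 ± 40.7 CPM (SD, n = 12) with it, and the 95% interval of its log2 fold change was -0.071 to 0.29. Adam10 was at 150.5 ± 30.8 CPM (SD, n = 11) and 160.4 ± 28.7 CPM (SD, n = 12), with an interval of -0.14 to 0.32. Both intervals exclude a change of 1 log2 unit in either direction. The fold changes, 0.11 and 0.091, turned negative when scaled to library totals. With 1 tumour left out they were as low as 0.060 for Adam17 (without abemaciclib tumour 9) and 0.037 for Adam10 (without abemaciclib tumour 10).

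Adam12, an ADAM of activated fibroblasts and carcinoma cells, had a much wider range. It ran from 31.9 through a median of 45.8 to 65.7 CPM in control and from 11.05 through 62.0 to 283.4 CPM in abemaciclib tumours. Above the highest control were 4 abemaciclib tumours (3, 6, 8 and 9), and below the lowest were 4 others (1, 5, 11 and 12), the tumours that were also low in Mmp14. The log2 fold change was 0.60 (95% interval -0.11 to 1.31, adjusted p = 0.463 by edgeR) and 0.15 without abemaciclib tumour 9. Adam19, which sheds neuregulins, was at 0.25 (95% interval -0.11 to 0.61), and Adam23, an adhesion protein, was at -0.44 (95% interval -0.96 to 0.074).

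Of the ADAMTS genes, Adamts1, which cuts versican and aggrecan, ran from 49.5 through a median of 109.5 to 189.9 CPM in control and from 42.0 through 94.5 to 366.7 CPM in abemaciclib tumours. Abemaciclib tumours 3, 8, 9 and 10 were above every control and tumours 1, 7 and 12 below every control. Its log2 fold change of 0.23 (adjusted p = 0.817 by edgeR) became -0.21 without tumours 3 and 10. Adamts5, an aggrecanase that lies beside Adamts1 on chromosome 16, was at 0.098 (95% interval -0.30 to 0.50), and Adamts8 was at -0.18 (95% interval -0.67 to 0.30). With 1 tumour left out Adamts5 ran from 0.024 to 0.20 and Adamts8 from -0.30 to -0.066. Adamts2, which trims procollagen, had at most 1 read in any tumour.

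Serpinf1 encodes pigment epithelium-derived factor, a secreted protein with anti-angiogenic activity. It ran from 103.4 through a median of 174.7 to 210.7 CPM in control and from 66.6 through 197.7 to 547.9 CPM in abemaciclib tumours, with 5 above and 2 below the control range (log2 fold change 0.48, 95% interval -0.045 to 1.00, adjusted p = 0.428 by edgeR). Without abemaciclib tumour 9 the Serpinf1 value was 0.28. Serpinh1 encodes HSP47, the chaperone of procollagen in the endoplasmic reticulum. It was at 1122 ± 324.3 CPM (SD, n = 11) and 1021 ± 339.6 CPM (SD, n = 12), and its log2 fold change was -0.14 (95% interval -0.48 to 0.21, adjusted p = 0.767 by edgeR), -0.25 without abemaciclib tumour 9 and -0.067 without control tumour 9.

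The Serpina1 genes encode copies of alpha-1-antitrypsin, the inhibitor of neutrophil elastase, and their reads may be split between near-identical copies. Serpina1b had 3 to 19 reads in each tumour and was at -0.033 on the log2 scale (95% interval -0.55 to 0.48). Serpina1a, Serpina1c and Serpina1e had at most 1 read in a tumour. Serpina1d had none in all 23, and a count of 0 allows 3 counts, or a level of up to 0.574 to 1.13 CPM depending on the library. Serpinb1b had at most 5 reads, and Serpini1, the brain inhibitor neuroserpin, had at most 16.

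Serpinb2, which encodes PAI-2, an inhibitor of urokinase induced in activated macrophages and keratinocytes (chromosome 1, 107511423 to 107535478), had the largest fold change of any member fitted without the filter on low counts, which it did not pass. In control tumours 1 to 11 the raw counts were 0, 0, 3, 3, 13, 0, 0, 0, 0, 1 and 0. In abemaciclib tumours 1 to 12 they were 1, 2, 153, 22, 1, 15, 10, 17, 5, 44, 2 and 1. All 7 tumours with no read were control tumours, and 6 of 12 abemaciclib tumours exceeded the highest control level of 2.66 CPM.

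With no filter, the log2 fold change of Serpinb2 was 3.46 (SE 0.865, unadjusted p = 0.000472, adjusted p = 0.079 by edgeR), where edgeR called 0% of 3734 genes. The other tools called it: DESeq2 gave 3.61 (adjusted p = 0.00747, with 2.11% of 3227 genes called) and limma-voom with quality weights gave 2.89 (adjusted p = 0.0229, with 2.41% of 3734 genes called). Both were run after the data had been seen. The size rested in part on tumours 3 and 10: without them edgeR gave 2.12 (adjusted p = 0.145). With each tumour left out in turn, the edgeR fold change ran from 2.59 (without abemaciclib tumour 3) to 4.62 (without control tumour 5) and the adjusted p from 0.0464 (without abemaciclib tumour 2) to 0.139.

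**Figure D3:**
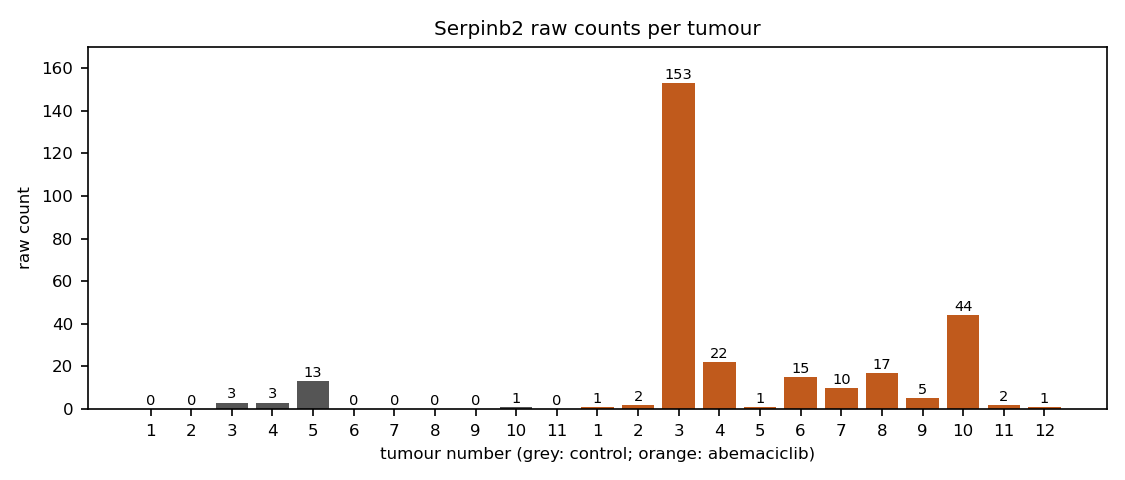
Raw read counts of Serpinb2 in each tumour, with control tumours 1 to 11 in grey and abemaciclib tumours 1 to 12 in orange. All tumours at 0 are control tumours, and abemaciclib tumours 3 and 10 hold 153 and 44 reads.

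Within the abemaciclib group the members varied together in a few tumours. Abemaciclib tumour 9 was the highest of all 23 tumours for 11 of the 25 tested members, among them Mmp2, Mmp8, Mmp11, Mmp14, Mmp19, Timp1, Adam12, Adam17, Serpinf1 and Serpinh1, and the lowest for Mmp15 and Timp2. It stood apart over the whole panel too, as the highest tumour for 16.6% and the lowest for 17.9% of all genes, and it had the smallest library, 2756919 counts. The members took 0.808% of its counts, against 0.315% to 0.575% in the other tumours.

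Some of the fibroblast markers moved with these members. The 11 markers on the panel were all tested, 8 positive and 3 negative, with none at an unadjusted p under 0.05. Their summed level was 4980 to 10510 CPM in control tumours, 3269 to 12600 CPM in the abemaciclib tumours other than tumour 9, and 23430 CPM in tumour 9, which was highest for 6 of the 11 (Col1a1, Col1a2, Pdgfra, Pdgfrb, Thy1 and Postn). Col1a1 (10350 CPM) and Col1a2 (6425 CPM) made up most of the sum in tumour 9, where Dcn (148.1 CPM) was below its control median of 207 CPM. Tumour 9 was also highest for 4 of 10 luminal epithelial markers (Krt8, Krt18, Krt19 and Cd24a) and lowest for Erbb3, and its Gata3, Muc1 and Cdh1 were below the control medians. Abemaciclib tumour 12 had the lowest fibroblast sum, 3269 CPM, and was lowest for 5 of the 11 markers. Acta2 went the other way, highest in tumour 12 (958.6 CPM) and lowest in tumour 9 (388.1 CPM). Tumour 12 was also highest for 4 of 6 macrophage markers and lowest for 5 of 9 endothelial markers. Among the 25 tested members, it was the lowest of all tumours for 7 (Mmp9, Mmp14, Mmp19, Timp1, Adam12, Adam23 and Serpinf1). Over the whole panel tumour 12 was the lowest for 6.43% and the highest for 7.79% of all genes. The tumours below every control in Mmp14 and Adam12 had fibroblast sums of 7477 (tumour 1), 3782 (tumour 5), 5247 (tumour 11) and 3269 CPM (tumour 12). Tumours 1 and 11 were thus within the control range of that sum. Summed dividing-cell markers were 76.9, 137.8, 112 and 193.5 CPM in tumours 1, 5, 11 and 12, against at least 327.5 CPM in control. Tumours 6, 7 and 8 were also below every control there (251.3, 81.7 and 227.2 CPM), but not in Mmp14 or Adam12. The part of fibroblast, macrophage, endothelial or dividing-cell content in these values was not tested.

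Abemaciclib tumours 3 and 10 formed another pattern. They held the 2 highest values of Mmp10 (51.9 and 42.45 CPM) and of Serpinb2 (29.3 and 10.1 CPM), and, with tumour 9, the 3 highest values of Mmp9. The summed level of 6 basal epithelial markers was 12790 and 9066 CPM there, against 821.6 to 5169 CPM in control tumours. Krt14 (9147 and 6110 CPM) and Krt5 (2869 and 2026 CPM) made up most of it, and Trp63 (108.3 and 150.5 CPM) was also above every control. Acta2, Myh11 and Mylk lay within the control range. The cysteine protease inhibitor Cst6 reached 201.8 and 270.3 CPM there, against at most 26.0 CPM in control. The AP-1 subunit Fosl1 was at 25.3 and 24.3 CPM in these tumours and at 46.1 CPM in tumour 9, against 1.17 to 12.5 CPM in control. Fosl1 was also above every control in abemaciclib tumour 8 (22.9 CPM), where the basal marker sum was 1333 CPM. The part of basal cells in these values was not tested.

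**Figure D4:**
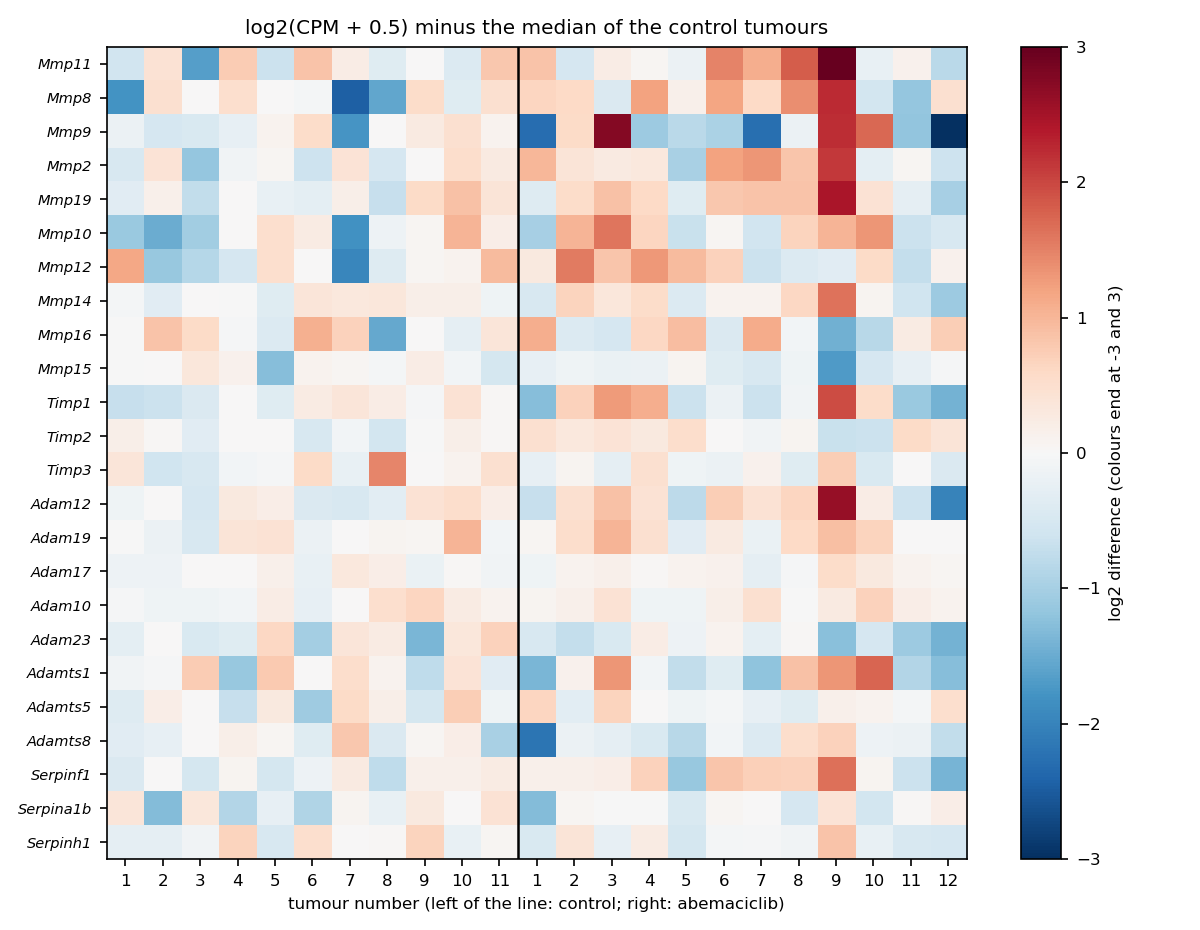
Tested members (rows) in each tumour (columns, control left of the line), as log2(CPM + 0.5) minus the median of the control tumours, with red above and blue below that median. The red column of abemaciclib tumour 9, the blue column of tumour 12 and the red Mmp9, Mmp10 and Adamts1 cells of tumours 3 and 10 are the main departures.

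The spread of the members between tumours was compared as well, by a permutation test of the distances of the log2 values from the group mean (100000 resamples, two-sided), added after the data had been seen. The standard deviation was larger in abemaciclib tumours for 16 of 25 members (64.0%), beside 63.3% of all genes. No member was called wider after adjustment, against 0% of all genes, and 5 members were wider at an unadjusted p under 0.05, against 8.48% of all genes. These were Timp1 (SD of log2 values 0.40 in control and 1.09 in abemaciclib, adjusted p = 0.247 by permutation), Mmp9 (0.64 and 1.88, adjusted p = 0.277 by permutation), Adamts1, Adam12 and Mmp14. Without tumour 9, 13 of 25 members (52.0%) and 50.3% of all genes were wider. The test is weak at this size: on simulated data it recovered 13 of 100 genes with a 3-fold larger standard deviation.

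Pairs of members with a known biochemical relation were then compared across tumours, with 10 pairs computed, p-values from permutation (100000 resamples, two-sided) and adjustment over the 10. Timp1, the usual partner of the Mmp9 precursor, correlated with Mmp9: Pearson's r was 0.76 and Spearman's rho 0.71 over 23 tumours (adjusted p = 4e-04 for r and 0.0028 for rho by permutation), and r was 0.66 (adjusted p = 0.0138 by permutation) without the 2 tumours farthest from the Mmp9 median. Within groups r was 0.84 in the 12 abemaciclib tumours (adjusted p = 0.00345 by permutation) and 0.076 in the 11 control tumours (adjusted p = 0.848 by permutation). Whether the groups' correlations differ was not tested.

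Serpinh1 and its client Col1a1 had r = 0.64 and rho = 0.59 (adjusted p = 0.0033 for r and 0.017 for rho by permutation). Within groups r was 0.41 in control and 0.80 in abemaciclib tumours. It rested in part on the outermost tumours, since r was 0.51 (adjusted p = 0.0859 by permutation) without the 2 farthest.

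Mmp14, Timp2 and Mmp2 act together in activating the Mmp2 precursor, and their pairs differed in sign. Mmp14 and Timp2 had r = -0.52 and rho = -0.42 (adjusted p = 0.0364 for r and 0.121 for rho by permutation). Within groups r was -0.54 in control and -0.59 in abemaciclib tumours, neither past the threshold after adjustment, and r was -0.30 without abemaciclib tumours 9 and 12. Mmp2 and Mmp14 had r = 0.50 and rho = 0.32 (adjusted p = 0.0409 for r and 0.206 for rho by permutation), but r = -0.21 in control tumours, 0.66 in abemaciclib tumours and 0.26 without the 2 farthest tumours, so the relation rested on those tumours. Mmp2 and Timp2 had r = -0.054 over all tumours, 0.65 in control tumours and -0.48 in abemaciclib tumours, none past the threshold after adjustment.

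Of the other pairs, 3 did not pass: Adamts5 and Timp3 (r = -0.23), Adam17 and Timp3 (r = 0.13) and Adam10 and Adam17 (r = 0.24). Of these, Adam10 and Adam17 were at r = 0.64 (adjusted p = 0.00337 by permutation) when scaled to library totals.

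**Figure D5:**
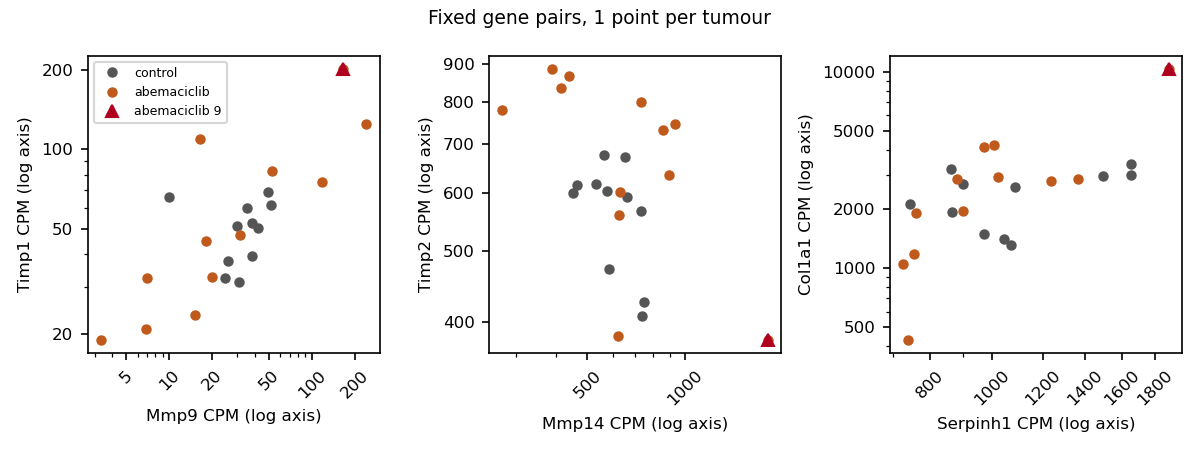
Levels of 3 gene pairs with 1 point per tumour, in CPM on log axes, for control (grey) and abemaciclib (orange) tumours with abemaciclib tumour 9 as a red triangle. Mmp9 and Timp1 rise together across abemaciclib tumours (r = 0.84), Mmp14 and Timp2 have r = -0.52 over all tumours and -0.30 without abemaciclib tumours 9 and 12, and tumour 9 lies at a corner of the Mmp14 and Timp2 and the Serpinh1 and Col1a1 panels.

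Among other genes of matrix turnover, a list made up mainly of cysteine and serine proteases mostly had positive fold changes. The list also held other proteases (Ctsd and Mme) and genes that do not encode proteases (Plaur, F3, Hgf and Hpse). Calls depended on the tool: edgeR called 0, DESeq2 4 (Ctsb, Ctsl, Ctss and Ctsz) and limma-voom 5 (the same 4 and Hgf). Of 22 on the panel 18 were tested, 17 positive and 1 negative, with a median of 0.39, and 8 were higher and 0 lower at an unadjusted p under 0.05. The lysosomal cathepsins led: Ctsl was at 733.3 ± 122.4 CPM (SD, n = 11) and 977.8 ± 127.4 CPM (SD, n = 12), a log2 fold change of 0.42 (adjusted p = 0.0651 by edgeR, 0.00704 by DESeq2 and 0.0259 by limma-voom), with all 12 abemaciclib tumours above the control median. Ctss, a cathepsin of antigen-presenting cells, was at 0.59 (adjusted p = 0.0872 by edgeR and 0.0181 by DESeq2) and Ctsz at 0.36 (adjusted p = 0.0912 by edgeR and 0.0202 by DESeq2). Macrophage markers moved in the same direction, as given with Mmp12, and their part in the cathepsin values was not tested.

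The other lists held no edgeR call either. Of other protease inhibitors and MMP regulators 6 were tested, 4 positive and 2 negative, led by Cst6 (3.21, adjusted p = 0.0848 by edgeR, 0.00581 by DESeq2 and 0.227 by limma-voom), Cstb (0.30) and A2m (-0.98), the gene of the broad inhibitor alpha-2-macroglobulin. Of collagen processing genes 7 were tested, 3 positive and 4 negative, with Tgm2 at 0.25. Of matrix substrates 18 were tested, 11 positive and 7 negative, with 0 in either direction at an unadjusted p under 0.05. Of membrane proteins that ADAMs shed 19 were tested, 16 positive and 3 negative, with 6 higher at an unadjusted p under 0.05, led by Vcam1 (0.84, adjusted p = 0.0872 by edgeR), Icam1 (0.49, adjusted p = 0.0985 by edgeR) and Tnfrsf1b (0.40, adjusted p = 0.185 by edgeR). DESeq2 called Vcam1 and Icam1, and limma-voom called Vcam1, Icam1, Tnfrsf1b and Axl. Of a list of AP-1 and ETS factors that also held Runx2, 10 were tested, 6 positive and 4 negative. Spi1 was at 0.43, Fosl1 at 0.98 and Ets1 at -0.23, and none of the list was called by edgeR.

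Library totals ran from 3044380 to 4492736 counts for control and from 2756919 to 4990391 for abemaciclib tumours, of which the 37 members took 11609 to 27259. Luminal epithelial markers, the check of the labelled mammary carcinoma, were tested for 10 of the 11 on the panel and summed to 6876 to 9971 CPM in control and 6186 to 13130 CPM in abemaciclib tumours. All 10 dividing-cell markers tested were lower at an unadjusted p under 0.05. EdgeR and DESeq2 called 0 of them and limma-voom with quality weights called all 10, and their sums were 327.5 to 1695 CPM in control and 76.9 to 1169 CPM in abemaciclib tumours.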

How the data were processed

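RNA from 23 mouse mammary carcinomas was amplified with a custom panel of 3826 genes, 1 amplicon of about 110 bp per gene, per the labels' protocols. The deposited table holds raw read counts per gene, not normalized by the authors. The submitters' processing notes name the build mm10, and the aligner and counter were not given in the sources used here. Amplicons differ in yield, so levels are not compared between genes.

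Counts were scaled by TMM and tested in edgeR 4.0.16 (R 4.3.3, filterByExpr, glmQLFTest, group as the only term). P-values were adjusted by Benjamini-Hochberg over 2925 genes. Alternatives were DESeq2 1.42.0, limma 3.58.1, other scalings and filters, a replicate block and leaving out tumours. Spread, correlations and promoter motifs were computed in Python 3.11.15. Intervals are 95% and floors cover counting error only. Columns without a mapped sample numbered 0. No 2 tumours agreed within counting noise (253 pairs, smallest chi-square per degree of freedom 18.4), and the biological coefficient of variation was 32.6%. Gene positions came from GENCODE M21, on the same assembly as mm10, and promoters from RefSeq on GRCm38.p6.

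On simulated data the edgeR step, run for abemaciclib against control on 2925 genes, recovered 37 of 67 genes changed 1.5-fold, 59 of 67 changed 2-fold and 65 of 66 changed 4-fold, and called 5 of 2725 unchanged genes. The simulation drew each gene independently of the others, so its recovery need not hold for these tumours. In the tumours edgeR called 0 of the 10 dividing-cell markers tested, whose median log2 fold change was -1.03. The members and lists were chosen with earlier results of these data known. Named with values were members with an unadjusted p under 0.05, the 10 with the highest mean CPM and a fixed list of well-studied family members. Mmp1a, Mmp1b, Mmp10, Mmp16, Adam23, Adamts8, Serpina1b, Serpina1c, Serpina1d, Serpina1e, Serpinb1b and Serpini1 lie outside that rule. One member, which is counted in all totals, and the pairs it belongs to are not reported here. The spread test, the Serpinb2 fits by other tools and with each tumour left out, and the correlations without abemaciclib tumour 9 were added after seeing the data.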

Additional observations from a re-analysis of the deposited data

How the results depend on the processing

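No alternative called any of the 25 tested members, higher or lower, and their smallest adjusted p under any of them was 0.118. Serpinb2, which is not among the 25, was called without the filter by DESeq2 and limma-voom, and by edgeR only without abemaciclib tumour 2 (adjusted p = 0.0464). Of 822 recomputed fold changes, 794 kept their direction and 28 changed sign, in 7 genes whose intervals span 0. The 4 members higher at an unadjusted p under 0.05 became 2 with library totals, 1 by limma-voom and 1 to 6 with 1 tumour left out (1 without abemaciclib tumour 9, 2 without control tumour 8 or abemaciclib tumour 8). The shares of all genes higher were 3.38% with library totals, 8.96% by limma-voom and 6.65% to 9.02% with 1 tumour left out. The 0 lower members became 2 with library totals, against 14.4% of all genes. With 1 tumour left out 0 to 1 members were lower, against 4.74% to 7.03% of all genes. With the replicate block 3 members were higher, against 6.15% of all genes, and 0 were called. Same-numbered tumours are tied by no label: correlations of their deviations ran from -0.43 to 0.45, 5 of 11 over 0.1, and 2 tumours matched their own number best.

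With library totals Adam10 was at -0.043, Adam17 at -0.023, Adamts5 at -0.061 and Mmp16 at -0.12. By limma-voom Adamts1 was at -0.093, Mmp9 at -0.58, Mmp16 at -0.030 and Serpina1b at 0.089. Without abemaciclib tumours 3 and 10 Adamts1 was at -0.21 and Mmp9 at -0.044. Mmp16 was at -0.024 with upper-quartile factors, at -0.089 with the replicate block and at -0.082 to 0.14 with 1 tumour left out, and Serpina1b at -0.13 to 0.044. The cause was not tested.

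For the pairs, without the 2 farthest tumours r was -0.30 for Mmp14 and Timp2, 0.13 for Mmp2 and Timp2, 0.26 for Mmp2 and Mmp14, -0.063 for Adam17 and Timp3 and 0.51 for Serpinh1 and Col1a1. In control tumours the values were -0.54 for Mmp14 and Timp2, 0.65 for Mmp2 and Timp2, -0.21 for Mmp2 and Mmp14, 0.076 for Mmp9 and Timp1 and 0.41 for Serpinh1 and Col1a1. In abemaciclib tumours they were -0.59 for Mmp14 and Timp2 and 0.66 for Mmp2 and Mmp14. With library totals they were -0.36 for Mmp14 and Timp2, 0.057 for Adamts5 and Timp3 and 0.64 for Adam10 and Adam17. Without abemaciclib tumour 9 they were -0.36 for Mmp14 and Timp2, 0.22 for Mmp2 and Timp2, 0.24 for Mmp2 and Mmp14, -0.079 for Adam17 and Timp3 and 0.52 for Serpinh1 and Col1a1. Plat with Serpini1 and Adamts2 with Col1a1 were not run, since Serpini1 and Adamts2 were set aside.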

Other observations

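The control tumours alone show which members vary between mammary carcinomas of this model. The coefficient of variation over the 11 control tumours was lowest for Adam17 (12.7%), Timp2 (16.2%), Mmp14 (17.4%) and Adam10 (20.5%), and highest for Mmp8 (64.3%), Mmp12 (59.4%) and Mmp10 (57.4%), the 3 tested MMP genes of the chromosome 9 cluster. Part of the Mmp8 value is counting error, since its control counts were 0 to 16. Control tumour 7 was the lowest of all 23 tumours for each of these 3 genes, with 0 CPM for Mmp8, 18.4 CPM for Mmp12 and 4.39 CPM for Mmp10. Tumour 7 was the lowest for 8.99% and the highest for 7.52% of all genes tested.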
